A study of Mus musculus with 48 samples.

Results

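The 10 astrocyte genes described here serve glutamate uptake, metabolism, cell coupling and water transport, or code for a filament protein or a transcription factor. They are Slc1a2, Slc1a3, Glul, Aldoc, Aldh1l1, Gja1, Gjb6, Aqp4, Gfap and Sox9. They were chosen by name, by matching the Ensembl identifiers of the count table to mouse gene symbols in GENCODE, and each of the 10 had a row among the 48526 genes of the table. All 10 passed the filter on low counts in every comparison, with between 46 and 194214 reads per library.

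Astrocytes send out fine, highly branched processes that wrap synapses and end on blood vessels. At the synapse they take up glutamate and potassium, turn glutamate into glutamine and return it to neurons, and gap junctions join the processes of neighbouring cells into a network. Messenger RNAs and ribosomes are found in these processes, at a distance from the cell body, so part of their protein can be made locally. Synaptosomes are resealed nerve endings obtained by homogenisation and density centrifugation, and fragments of astrocyte processes can be recovered with them.

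The data come from the cortex of 12 male wild-type mice of the C57BL/6JRj strain, with 4 mice at each age: 3 weeks (3w), 5 months (5m) or 18 months (18m). For the middle age, the protocol states 5 months and the labels of the samples state 6 months, and the name 5m is used here. RNA was taken from total homogenate (TH) and from synaptosomes (SYN), each before (input) and after centrifugation through a sucrose cushion, whose pellet is rich in ribosomes (SC). Each mouse therefore gave 4 libraries (input_TH, SC_TH, input_SYN and SC_SYN), 48 in all, and the replicates of a group are 4 separate mice.

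The libraries held between 1780267 and 18590040 reads on genes, and the medians were 10815833.5 in input_TH, 8643431 in SC_TH, 3756951 in input_SYN and 7298371 in SC_SYN. Levels are given as CPM, the counts of a gene relative to all counts of its library, after scaling of the library sizes by TMM, a method that assumes that most genes do not differ between libraries. The input_TH library of mouse 191 (5m) stood apart in vessel, meningeal and reactive astrocyte genes: the summed level of 10 mural and meningeal markers was 799 CPM there, and the lowest library of that group had 208 CPM. These are bulk samples, so that fewer cells of a type and less RNA per cell cannot be told apart.

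In the GRCm38 genome, Slc1a2 (ENSMUSG00000005089) lies at chr2:102658659-102790784 on the plus strand, and Slc1a3 (ENSMUSG00000005360) at chr15:8634124-8710764 on the minus strand. Glul (ENSMUSG00000026473) lies at chr1:153899944-153909723, Aldoc (ENSMUSG00000017390) at chr11:78322968-78327781 and Aldh1l1 (ENSMUSG00000030088) at chr6:90486427-90600203, all on the plus strand. Gja1 (ENSMUSG00000050953) lies at chr10:56377330-56402513 on the plus strand and Gjb6 (ENSMUSG00000040055) at chr14:57123303-57133611 on the minus strand. Gfap (ENSMUSG00000020932) lies at chr11:102887336-102900912 on the minus strand, and Sox9 (ENSMUSG00000000567) at chr11:112782224-112787760 on the plus strand. Reads were counted over exons without regard to strand. Exons of other genes overlap 189 exonic bases of Slc1a2, 209 of Glul and 604 of Aldh1l1, and reads there cannot be told apart between the genes; for the other 7 genes no overlap was found.

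The promoters of Gfap and Gja1 are shown because these genes gave the largest SYN to TH differences among the 10, in SC and in 3w and 18m input RNA respectively, and because their TH input levels moved in opposite directions between 5m and 18m. Each sequence is the RefSeq window on GRCm38.p6 from 250 bases before to 50 bases after the start annotated there, in the direction of transcription. The first, on the minus strand, is at chr11:102897151-102897450, and the second, on the plus strand, is at chr10:56377050-56377349. The Gfap window lies inside the gene span given above, away from its minus strand start at chr11:102900912. Capitals mark matches to the searched motifs.
Gfap: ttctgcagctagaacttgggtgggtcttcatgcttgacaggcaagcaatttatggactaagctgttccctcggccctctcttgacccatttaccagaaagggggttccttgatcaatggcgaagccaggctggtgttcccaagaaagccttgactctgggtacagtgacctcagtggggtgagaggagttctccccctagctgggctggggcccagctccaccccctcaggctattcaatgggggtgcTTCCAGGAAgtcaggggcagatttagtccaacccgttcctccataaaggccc
Gja1: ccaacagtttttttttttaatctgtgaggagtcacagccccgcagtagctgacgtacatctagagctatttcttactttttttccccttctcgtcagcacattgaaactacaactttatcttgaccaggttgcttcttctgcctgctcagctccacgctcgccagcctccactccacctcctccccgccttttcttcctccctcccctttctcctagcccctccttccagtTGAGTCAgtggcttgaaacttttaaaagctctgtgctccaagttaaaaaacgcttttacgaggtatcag
The search covered 5 motifs on both strands: the TATA box (TATAAA), the STAT motif (TTCNNNGAA), the NFI motif (TTGGC), the cAMP response element (TGACGTCA) and the AP-1 motif (TGANTCA). Of the 32851 RefSeq promoter windows of this length, 13.6% held the TATA box, 8.3% the STAT motif, 46.7% the NFI motif, 1.79% the cAMP response element and 7.81% the AP-1 motif. The Gfap window held 1 match to the STAT motif and the Gja1 window 1 match to the AP-1 motif. These matches describe letters in the window, and binding was not measured.

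Per kilobase of exon, counted over all annotated exons of a gene, the enzyme genes Glul and Aldoc and the main glutamate transporter led. The transcription factor came last. Glul, which codes for glutamine synthetase, had the highest median level in all 4 fractions, from 355 CPM per kb in input_TH to 2029 CPM per kb in SC_SYN. Slc1a2, the main glutamate transporter of the forebrain (GLT-1), was next, with medians from 259 CPM per kb in input_TH to 971 CPM per kb in SC_SYN, followed by Aldoc, the brain form of the glycolytic enzyme aldolase, with 82.8 to 671 CPM per kb. The ranges of Glul and Slc1a2 overlapped in both input fractions and were separate in both SC fractions. Those of Slc1a2 and Aldoc overlapped only in SC_SYN, where the lowest Slc1a2 library had 811 and the highest Aldoc library 853 CPM per kb.

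Gfap, the intermediate filament protein of astrocytes, and Slc1a3, the second astrocyte glutamate transporter (GLAST), lay in the middle. Their ranges overlapped in input_TH, with medians of 29.1 and 29.3 CPM per kb, and were separate in the other 3 fractions, where Gfap was the higher one, for example with 256 against 117 CPM per kb in SC_SYN. The connexin genes Gja1 and Gjb6, the folate enzyme gene Aldh1l1 and the water channel gene Aqp4 formed a low group with overlapping ranges. Their medians lay between 7.47 and 12.1 CPM per kb in input_TH and between 26.6 and 48.6 CPM per kb in SC_SYN. The place of a gene depends on the length used. The exons of Gja1 cover 10257 bases and those of Slc1a3 8537 bases. Their annotated transcripts with the longest coding sequence have 3182 and 4163 bases. Levels per transcript length were not computed. Sox9, a transcription factor of the glial lineage, was lowest in all 4 fractions, from 7.22 CPM per kb in input_TH to 17.5 CPM per kb in SC_SYN. Its range was separate from that of the next gene only in input_SYN.

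Together the 10 genes took 0.63% to 0.764% of the reads in input_TH, 0.932% to 1.1% in SC_TH, 1.4% to 1.76% in input_SYN and 1.89% to 2.22% in SC_SYN. Slc1a2 alone gave 41.9% to 68.1% of these reads, with 41.9% to 55.9% in SC_SYN.

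**Figure D1:**
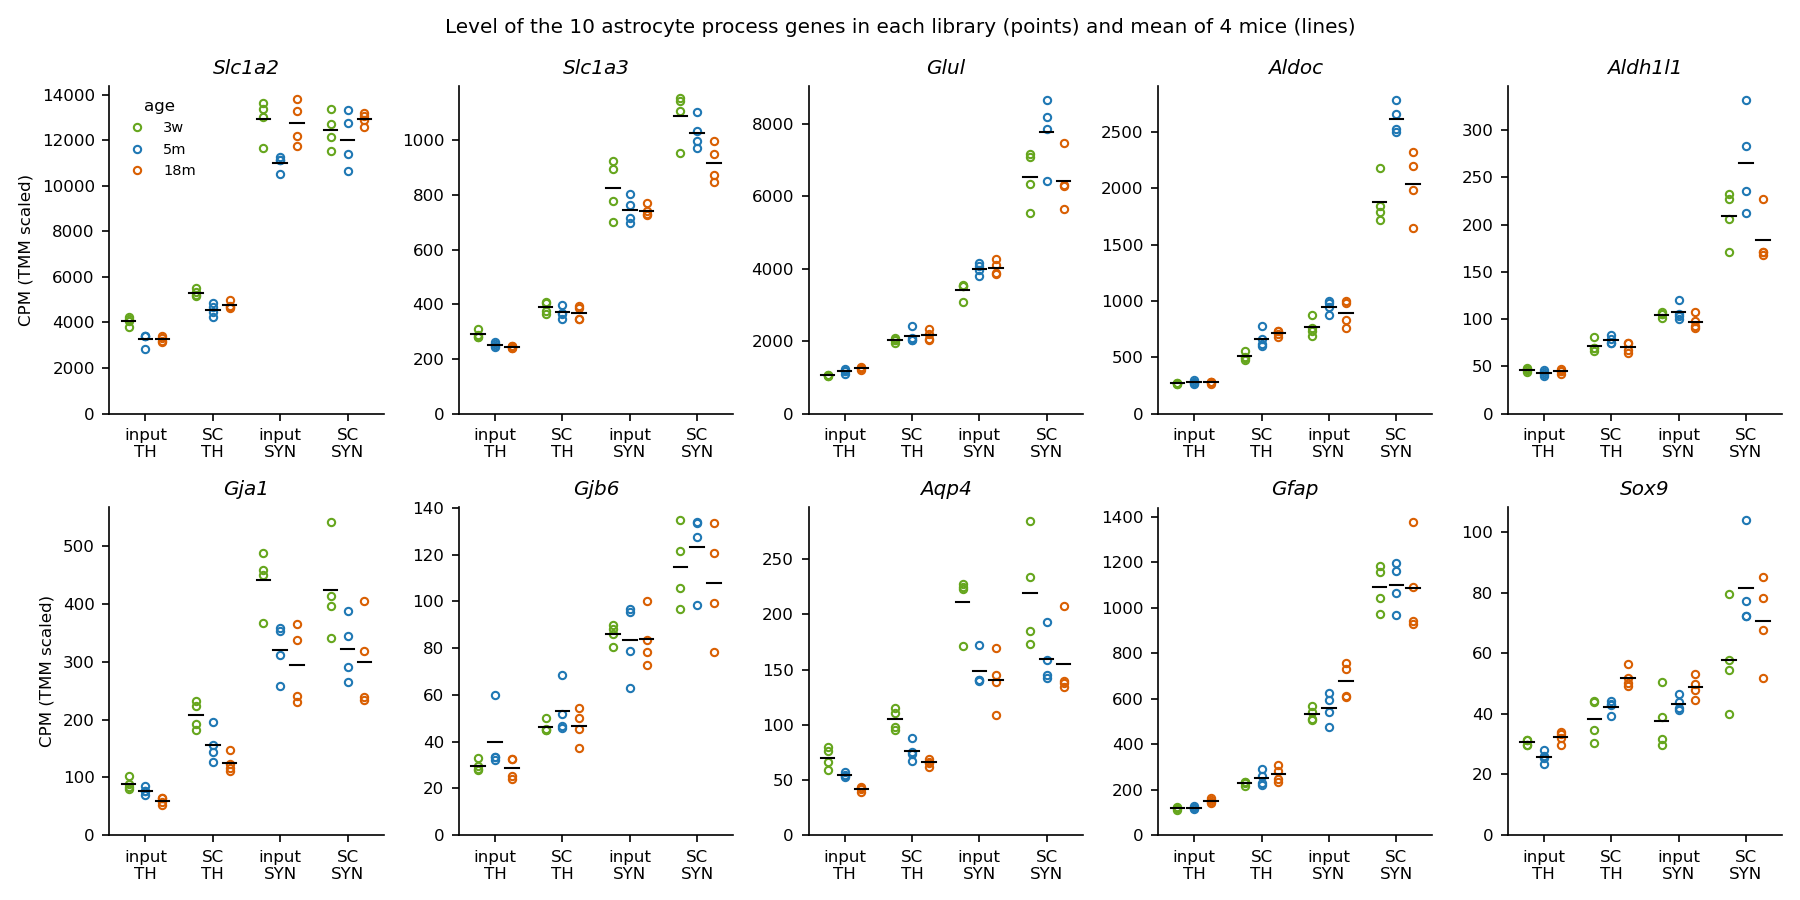
Level of each of the 10 genes in CPM (linear axis) in the 48 libraries, by fraction and age. Each point is the library of 1 mouse and lines give the mean of 4 mice. Within each age and kind of library, SYN points lie above TH points for every gene except Sox9, whose points overlap in 3 of its 6 comparisons.

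Whether these RNAs are found in synaptosomes at a higher level than in total homogenate was asked in input and in SC libraries at each age. All 10 genes were higher in SYN than in TH in all 6 comparisons (edgeR quasi-likelihood test, adjusted p between 4.69e-19 and 0.0153). In SC libraries the test called 63.5%, 67.8% and 62.1% of 16630 genes different at 3w, 5m and 18m, and 31.1%, 32.1% and 29.9% of the genes were called higher in SYN. For input libraries the same shares of 17860 genes were 71%, 72.7% and 72.3% different, with 31.7%, 32.6% and 32.9% higher. The median log2 fold change of the 10 genes was 1.45, 1.46 and 1.39 in SC and 1.57, 1.67 and 1.69 in input, and the median of all genes tested lay between -0.18 and -0.04.

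Gfap showed the largest SC difference. Its SC_TH levels at 5m were 227, 289, 261 and 221 CPM, and its SC_SYN levels were 1198, 1066, 967 and 1163 CPM. The lowest synaptosome library was above every homogenate library, and the log2 fold change was 2.17 (SE 0.123), or 4.49-fold. At 3w and 18m the fold changes were 4.95 and 4.16. In input RNA, Gfap was 2.17, 2.23 and 2.16 higher on the log2 scale at the 3 ages.

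Both glutamate transporters were enriched. Slc1a2 at 5m had input_TH levels of 2855, 3394, 3392 and 3417 CPM and input_SYN levels of 11280, 10518, 11147 and 11148 CPM, a log2 fold change of 1.76 (SE 0.0723). The homogenate library of mouse 191 was the lowest of its group, and no synaptosome library came near the homogenate range. In SC libraries its log2 fold change was 1.28, 1.42 and 1.47 at 3w, 5m and 18m. Slc1a3 was 1.54, 1.5 and 1.35 higher in SC and 1.52, 1.57 and 1.61 higher in input.

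The metabolic enzymes were also higher in SYN. The SC_TH levels of Aldoc at 5m were 776, 597, 618 and 660 CPM against 2782, 2524, 2497 and 2663 CPM in SC_SYN, a log2 fold change of 2.00 (SE 0.107). Glul was 1.74, 1.88 and 1.61 higher in SC and 1.70, 1.78 and 1.70 higher in input. Aldh1l1, which codes for a folate enzyme often used as a marker of all astrocytes, was 1.60, 1.8 and 1.43 higher in SC and 1.19, 1.33 and 1.12 higher in input.

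Gja1, the gene of the main astrocyte connexin, differed more between SYN and TH in input than in SC RNA. At 3w its levels were 103, 80.3, 83.5 and 88.1 CPM in input_TH and 450, 489, 460 and 367 CPM in input_SYN, a log2 fold change of 2.32 (SE 0.134) or 5.01-fold. The SC_TH levels at the same age were 223, 233, 181 and 192 CPM and the SC_SYN levels 397, 543, 415 and 342 CPM, a log2 fold change of 1.08 (SE 0.17). Neither pair of groups overlapped. Gjb6, the second connexin of astrocytes, was 1.36, 1.25 and 1.24 higher in SC and 1.54, 1.08 and 1.56 higher in input. Aqp4, the water channel of astrocyte endfeet, was 1.11, 1.10 and 1.26 higher in SC and 1.60, 1.45 and 1.75 higher in input.

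Sox9 was the least enriched of the 10 in all 6 comparisons. Its input_TH levels at 3w were 31.4, 31.5, 29.9 and 29.8 CPM and its input_SYN levels were 50.6, 39.0, 31.6 and 29.6 CPM, so the groups overlapped. The log2 fold change of 0.36 (SE 0.112) passed the test (edgeR, adjusted p = 0.00563), was 0.18 and no longer passed without mouse 187, and was 0.07 when at least 10 counts were required in every library. With library size in place of TMM it was -0.22. At 5m and 18m Sox9 was 0.76 and 0.61 higher in input. In SC it was 0.65, 0.96 and 0.48 higher, the value at 3w fell to 0.40 and lost the call without mouse 187, and that at 18m lost the call without mouse 196 (0.41) or mouse 197 (0.43). Over the 10 genes, 2 kinds of library and 3 ages, 57 of 60 pairs of SYN and TH groups did not overlap, and the 3 that did were pairs of Sox9. The share of all genes without overlap is not given here. Between 62.1% and 72.7% of all genes were called different in these comparisons, so the count is not particular to the 10 genes.

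Other lists also differed between SYN and TH, in both directions. Of 38 other astrocyte markers, all 38 were higher in SC_SYN than in SC_TH at each age, with medians of 1.54, 1.55 and 1.19, and 36 to 37 were higher in input_SYN. S100b, a calcium-binding protein of astrocytes, was 1.88 higher in SC at 5m, and Ndrg2, a gene often used as an astrocyte marker, 2.11. The summed level of 12 microglia markers was 209 to 256 CPM in input_TH against 413 to 846 CPM in input_SYN, and 299 to 436 CPM in SC_TH against 681 to 1463 CPM in SC_SYN. For 12 neuron markers the sum was 6752 to 8324 CPM in input_TH against 17470 to 19336 CPM in input_SYN, and 11537 to 13940 CPM in SC_TH against 16385 to 21718 CPM in SC_SYN. At 5m, 10 oligodendrocyte markers summed to 2138 to 2422 CPM in input_TH and 3391 to 3652 CPM in input_SYN. For 8 oligodendrocyte precursor markers the 5m sums were 414 to 472 CPM in input_TH and 1088 to 1297 CPM in input_SYN. The 10 endothelial markers summed to 182 to 311 CPM in input_TH and 17.6 to 33.5 CPM in input_SYN. The 8 nuclear RNAs summed to 17190 to 20108 CPM in input_TH and 1765 to 4412 CPM in input_SYN. No marker of these lists was at 0 in a whole group. The part of these shifts in the differences of the 10 genes was not tested.

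The families of the 10 genes were counted in SC at 5m, where 32.1% of all genes were higher in SYN and 35.8% lower. Among 10 tested genes of other glutamate transporters and the glutamine cycle, 7 were higher and 2 lower in SC_SYN at 5m, and the neuronal transporter gene Slc1a1 was 1.32 higher on the log2 scale. The test called 4 of 8 other connexin genes higher in SC_SYN, among them Gjb1 (0.71) of oligodendrocytes and Gjd2 (1.15) of neurons, and none lower. In the dystrophin and endfoot list, which holds the anchors of the water channel, 9 of 11 were higher, led by Mlc1 (1.65) and the potassium channel gene Kcnj10 (1.63), and 1 was lower. Among 6 other intermediate filament genes, 2 were higher and 2 lower, with Vim at 0.64 and the neurofilament gene Nefm at -0.66. Among 12 other transcription factors of astrocytes, 9 were higher and 1 lower, with Sox2 at 0.51 and Lhx2 at 1.03.

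The size of these differences depended on the scaling. When library sizes were used without TMM, the median of all genes moved by -0.53 to -0.65 on the log2 scale, the median of the 10 genes was 0.90, 0.87 and 0.86 in SC and 1.00, 1.02 and 1.12 in input, and the share of called genes that were higher in SYN dropped from between 44.6% and 49% to between 20.5% and 25.4%. The 9 genes other than Sox9 stayed higher and passed the test at all 3 ages in both kinds of library, and Sox9 passed only in SC at 5m.

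**Figure D2:**
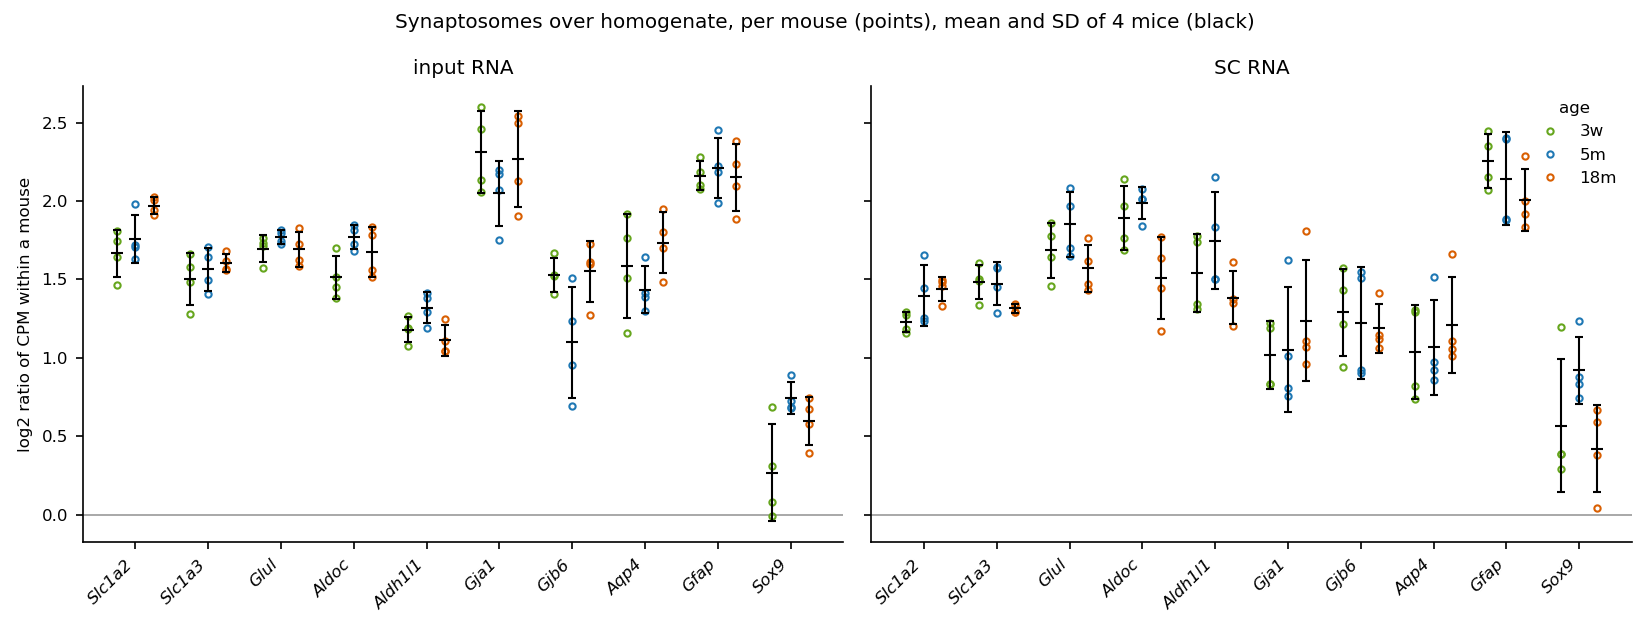
Log2 ratio of CPM in SYN over TH within each mouse for the 10 genes, in input RNA (left) and SC RNA (right), at 3w, 5m and 18m; each point is 1 mouse, and black bars give the mean and SD of 4 mice. Gfap lies highest in SC, Gfap and Gja1 lie highest in input, and Sox9 lies lowest in both.

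How far each RNA was held in the ribosome pellet was described by SC over input within a compartment, averaged over the 3 ages. In TH all 10 genes were higher in SC than in input, with log2 fold changes between 0.48 and 1.19 (edgeR, adjusted p between 1.05e-19 and 1.12e-06) and a median of 0.66. Of 18416 genes tested, 75.8% were called different and 35.6% called higher. In SYN, 7 of the 10 genes were higher in SC, with a median of 0.55 over the 10, where 43.2% of 14301 genes were called different and 21.8% higher. Aldoc led in both compartments, with 1.19 (SE 0.0407) in TH and 1.30 (SE 0.0605) in SYN.

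The 3 genes that did not pass in SYN were Slc1a2, Gja1 and Aqp4. In TH, Slc1a2 was 0.48 higher in SC (SE 0.0347) and every mouse was above 0, between 0.29 and 0.65. In SYN it was at 0.01 (SE 0.0498), and 6 of 12 mice were above 0, between -0.14 and 0.26. Gja1 was 1.11 higher in SC_TH (SE 0.0639), in 12 of 12 mice, and at -0.03 in SYN (SE 0.108), where 4 of 12 mice were above 0. Aqp4 was 0.58 higher in TH (SE 0.0486), in 12 of 12 mice, and at 0.08 in SYN (SE 0.0933), where 8 of 12 mice were above 0.

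The difference between the compartments was then tested in a model with all 48 libraries. This comparison was chosen after the values per compartment had been seen. It called 4 of the 10 genes, beside 43.5% of 18112 genes. The log2 ratio of SC over input in SYN minus that in TH was -1.11 (SE 0.129) on the log2 scale for Gja1 (edgeR, adjusted p = 1.73e-09), -0.47 (SE 0.109) for Aqp4 (adjusted p = 0.000434) and -0.44 (SE 0.0591) for Slc1a2 (adjusted p = 4.51e-08). For Aldh1l1 it was higher in SYN, by 0.36 (SE 0.0852, adjusted p = 0.000498). These 4 calls held in all 18 alternatives with a test. Aldoc, at 0.14, passed in 5 of them, and Slc1a3, at -0.14, passed with the replicate block (-0.13).

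The values of Aldh1l1 show the opposite order to those of Gja1. The SC over input ratios of Aldh1l1 at 5m were 1.47, 1.16, 1.03 and 1.5 in SYN and 0.70, 1.08, 0.82 and 0.85 in TH, and those of Gja1 were -0.30, -0.03, -0.24 and 0.59 in SYN and 0.76, 1.36, 1.18 and 0.71 in TH. For Gja1 the groups did not overlap at this age, while for Aldh1l1 they overlapped between 1.03 and 1.08. The other 6 genes had differences between -0.15 and 0.14 (edgeR, adjusted p between 0.0709 and 0.919).

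Among the gene lists, 10 of 38 other astrocyte markers were higher and 9 lower in this comparison, where 18.7% of all genes were higher and 24.8% lower. The membrane protein gene Mlc1 (-0.52), the potassium channel gene Kcnj10 (-0.48) and the cell adhesion gene Hepacam (-0.22) were lower, as were the connexin genes Gjb1 (-1.13) and Gjd2 (-0.96). The enzyme genes Cbs (0.91) and Prdx6 (0.56) were higher. GC content of the longest annotated transcript was described over the 10 genes, which share all libraries. Its Spearman rho was 0.77 with the difference and 0.867 with SC over input in SYN. The length of the 3′ untranslated region had a rho of -0.44 with the difference and -0.62 with SC over input in SYN. The longest one, of 9250 bases, belongs to the annotated transcript of Slc1a2, and the shortest, of 714 bases, to that of Gjb6. With a trend on GC content and exonic length over all genes removed, the difference was -1.12 for Gja1, -0.49 for Aqp4, -0.45 for Slc1a2 and 0.29 for Aldh1l1.

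**Figure D3:**
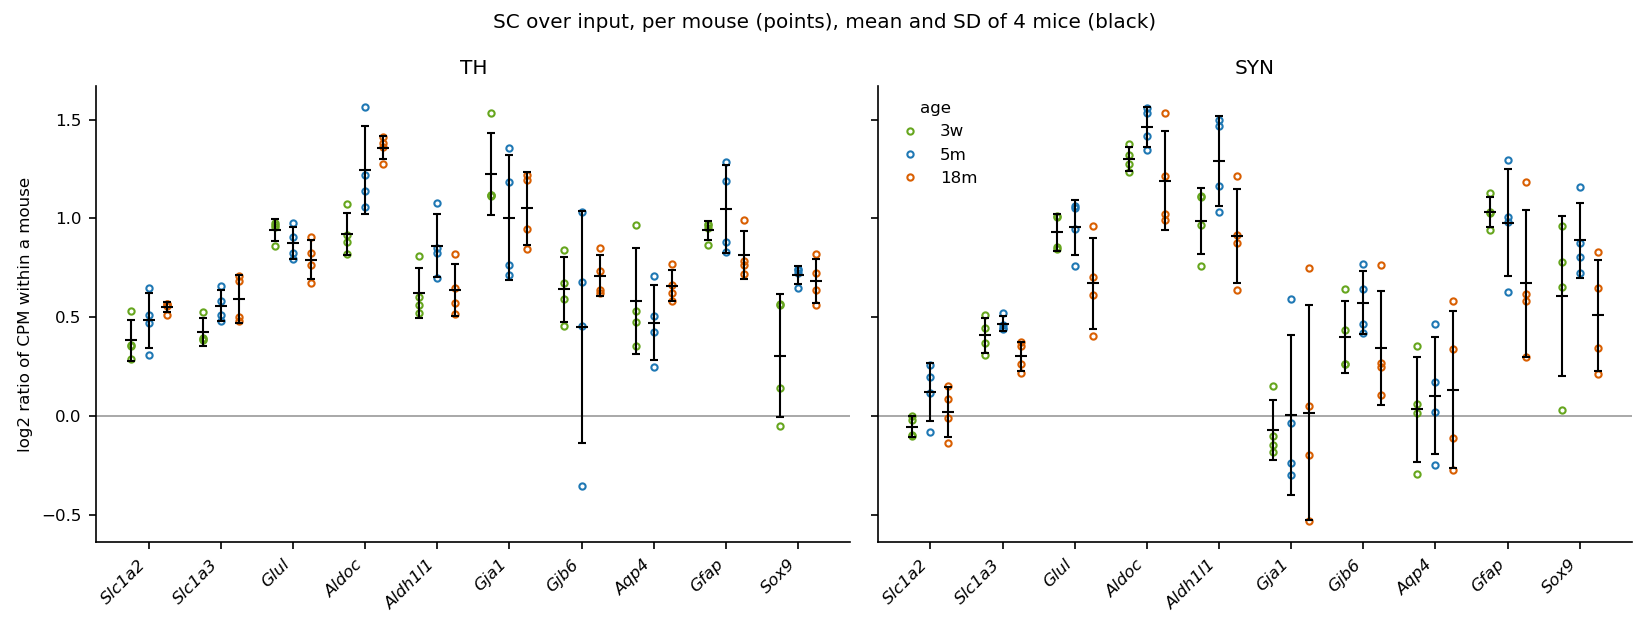
Log2 ratio of CPM in SC over input within each mouse for the 10 genes, in TH (left) and SYN (right), at 3w, 5m and 18m; each point is 1 mouse, and black bars give the mean and SD of 4 mice. Slc1a2, Gja1 and Aqp4 lie above 0 in TH and around 0 in SYN.

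The change of SC over input with age did not pass for any of the 10 genes. In SYN, the test called 0 of 14301 genes between 3w and 5m (0%) and 0 between 5m and 18m (0%), and at an unadjusted p under 0.05 it called 473 and 393 genes, none of them among the 10. DESeq2 called 0 of the 10. In TH edgeR called 2.33% of 18416 genes between 3w and 5m and 1.78% between 5m and 18m, with 0 of the 10 in either comparison. At an unadjusted p under 0.05, 3 and 1 of the 10 were called, beside 4027 and 3137 of the 18416 genes. DESeq2 called 2 of the 10 (Aldoc and Sox9) and 0, and its counts over all genes are not given here.

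Between 3w and 5m, input_TH levels of 4 of the 10 genes fell and none rose, and 11.8% of 18078 genes were called, 7.05% as lower. Of the called genes 40.3% were higher at 5m, and 59.2% with library size in place of TMM. Aqp4 (ENSMUSG00000024411, GRCm38 chr18:15389496-15410982, minus strand) had 79.8, 58.9, 65.9 and 76.5 CPM at 3w and 54.8, 53.6, 52.7 and 56.8 CPM at 5m. It fell by 0.37 on the log2 scale (SE 0.0777, edgeR adjusted p = 0.00416), and the 2 groups did not overlap. Slc1a2 had 4156, 3820, 4071 and 4221 CPM at 3w and 2855, 3394, 3392 and 3417 CPM at 5m, and fell by 0.32 (SE 0.0584, adjusted p = 0.00153) with no overlap.

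The other glutamate transporter moved the same way. Slc1a3 had 309, 282, 278 and 288 CPM at 3w and 246, 253, 262 and 244 CPM at 5m, and fell by 0.21 (SE 0.0472, edgeR adjusted p = 0.00716). Sox9 had 31.4, 31.5, 29.9 and 29.8 CPM at 3w and 28.2, 26.1, 25.6 and 23.5 CPM at 5m, and fell by 0.25 (SE 0.0668, adjusted p = 0.0199). The call of Sox9 was lost without mouse 187 (-0.24), 188 (-0.24) or 194 (-0.21). Glul, at 0.15, and Gja1, at -0.21, did not pass. Glul passed in 4 of 19 alternatives, among them DESeq2 (0.15) and library size (0.19), and Gja1 in 2 of 19, with no filter (-0.22) and without mouse 191 (-0.27). Counts of genes whose groups did not overlap were 1 of 10 above and 4 below, where 18.2% of all genes did not overlap.

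Gjb6 was the gene most touched by that library. Its input_TH levels at 5m were 59.8, 33.3, 32.3 and 33.2 CPM, with the first value from mouse 191, and those at 3w were 33.1, 28.1, 29.7 and 27.9 CPM. The log2 fold change of 0.41 (SE 0.168) did not pass (edgeR, adjusted p = 0.134) and was 0.14 without mouse 191. The difference of -0.47 between 5m and 18m was -0.21 without it. The SC_TH library of the same mouse had 46.8 CPM, inside the range of its group.

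Between 5m and 18m, input_TH levels changed for 4 of the 10 genes, 2 in each direction, where 15.5% of the genes were called. Of the called genes 52.7% were higher at 18m, and 32.6% with library size. Gfap rose from 127, 119, 114 and 120 CPM to 154, 143, 144 and 164 CPM, by 0.34 (SE 0.0563, edgeR adjusted p = 0.00263). Sox9 rose from 28.2, 26.1, 25.6 and 23.5 CPM to 34.0, 29.7, 32.0 and 33.3 CPM, by 0.32 (SE 0.0665, adjusted p = 0.00594). For both genes all 18m libraries were above all 5m libraries.

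The water channel and the main connexin were lower at 18m. Aqp4 fell by 0.39 (SE 0.08, edgeR adjusted p = 0.00615) to 41.3, 38.9, 43.7 and 42.4 CPM, below all 5m libraries. Gja1 went from 85.1, 76.7, 69.0 and 76.5 CPM to 64.4, 52.5, 57.8 and 64.3 CPM and fell by 0.36 (SE 0.0852, adjusted p = 0.012), again with no overlap. Gjb6, at -0.47, did not pass (adjusted p = 0.0659). The test of all 4 genes held without each mouse in turn, while a fit of all 48 libraries together called 1 of the 10 genes between 3w and 5m and 0 between 5m and 18m in input_TH. Groups did not overlap for 2 genes above and 2 below, where 18.4% of all genes did not overlap.

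In the SC_TH libraries, 4 of the 10 genes changed between 3w and 5m, where 17.9% of 16427 genes were called. Aldoc rose from 495, 471, 555 and 504 CPM to 776, 597, 618 and 660 CPM, by 0.39 (SE 0.0832, edgeR adjusted p = 0.00457). Aqp4 fell from 111, 115, 95.4 and 97.8 CPM to 73.6, 87.7, 75.1 and 67.5 CPM, by 0.47 (SE 0.0861, adjusted p = 0.00184). For both genes the ages did not overlap.

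Slc1a2 fell by 0.22 (SE 0.056, edgeR adjusted p = 0.0144), from 5331, 5525, 5200 and 5159 CPM to 4471, 4835, 4695 and 4233 CPM. Gja1 fell by 0.41 (SE 0.12, adjusted p = 0.0259), from 223, 233, 181 and 192 CPM to 145, 197, 157 and 126 CPM, and these groups overlapped. The call of Gja1 was lost without mouse 187 (-0.37), 188 (-0.36), 191 (-0.38) or 194 (-0.34). Between 5m and 18m, 2.17% of the genes and 0 of the 10 were called in SC_TH, and DESeq2 called 0 of the 10. At an unadjusted p under 0.05 there were 3 of the 10, beside 2878 of 16427 genes. The ages did not overlap for 1 gene above and 2 below between 3w and 5m (17.9% of all genes) and for 1 above and 1 below between 5m and 18m (9.86%).

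Beside these changes in TH, the summed level of 10 oligodendrocyte markers was 5376 to 6670 CPM at 3w and 2138 to 2422 CPM at 5m in input_TH. The 8 nuclear RNAs summed to 10821 to 14214 CPM at 3w, 7782 to 11431 CPM at 5m and 5524 to 6573 CPM at 18m in SC_TH. Their part in the changes of the 10 genes was not tested.

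In input_SYN, 1 gene was called between 3w and 5m, where 3.22% of 12975 genes were called, 1.94% as lower. Aqp4 went from 227, 223, 225 and 171 CPM to 172, 141, 141 and 140 CPM and fell by 0.54 (SE 0.135, edgeR adjusted p = 0.0354), with the 3w library of mouse 190 inside the 5m range. The call was lost, at values between -0.53 and -0.50, without mouse 187, 188, 189, 192, 193 or 194. Between 5m and 18m, 0.139% of the genes and 0 of the 10 were called, and DESeq2 called 0 of the 10. At an unadjusted p under 0.05 there were 2 of the 10, beside 1214 of 12975 genes.

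In SC_SYN, 1 gene was called between 3w and 5m, where 8.05% of 14240 genes were called, 4.02% as higher. Of the called genes 50% were higher at 5m, and 39.2% with library size. Aldoc rose from 2181, 1846, 1788 and 1715 CPM to 2782, 2524, 2497 and 2663 CPM, by 0.43 (SE 0.12, edgeR adjusted p = 0.0402), and every 5m library was above every 3w library. The call was lost, at values between 0.39 and 0.46, without any of mice 188 to 194, and with library size in place of TMM (0.38). At 18m its levels were 1648, 2319, 2195 and 1985 CPM, all below the 5m libraries, but the difference of -0.33 did not pass (adjusted p = 0.218). Between 5m and 18m, 0.014% of the genes and 0 of the 10 were called, and DESeq2 called 0 of the 10. At an unadjusted p under 0.05 there were 2 of the 10, beside 2474 of 14240 genes.

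Aldh1l1 had the largest SC_SYN difference between 5m and 18m. Its levels were 332, 236, 212 and 283 CPM at 5m and 171, 171, 168 and 227 CPM at 18m, a log2 difference of -0.50 (SE 0.155) that did not pass (edgeR, adjusted p = 0.187). The groups overlapped through mouse 198. Ages that did not overlap were found in input_SYN for 1 gene above and 2 below between 3w and 5m (12% of all genes) and 1 above between 5m and 18m (6.17%), and in SC_SYN for 1 above between 3w and 5m (18.1%) and 1 below between 5m and 18m (11.6%).

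Marker sums moved with age in synaptosomes too. The 10 oligodendrocyte markers summed to 8838 to 11716 CPM at 3w and 3391 to 3652 CPM at 5m in input_SYN, and to 8952 to 10885 CPM and 3590 to 3870 CPM in SC_SYN. The 12 microglia markers summed to 413 to 532 CPM at 3w and 645 to 846 CPM at 5m in input_SYN, and to 681 to 783 CPM and 1172 to 1463 CPM in SC_SYN. Their part in the changes of the 10 genes was not tested.

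**Figure D4:**
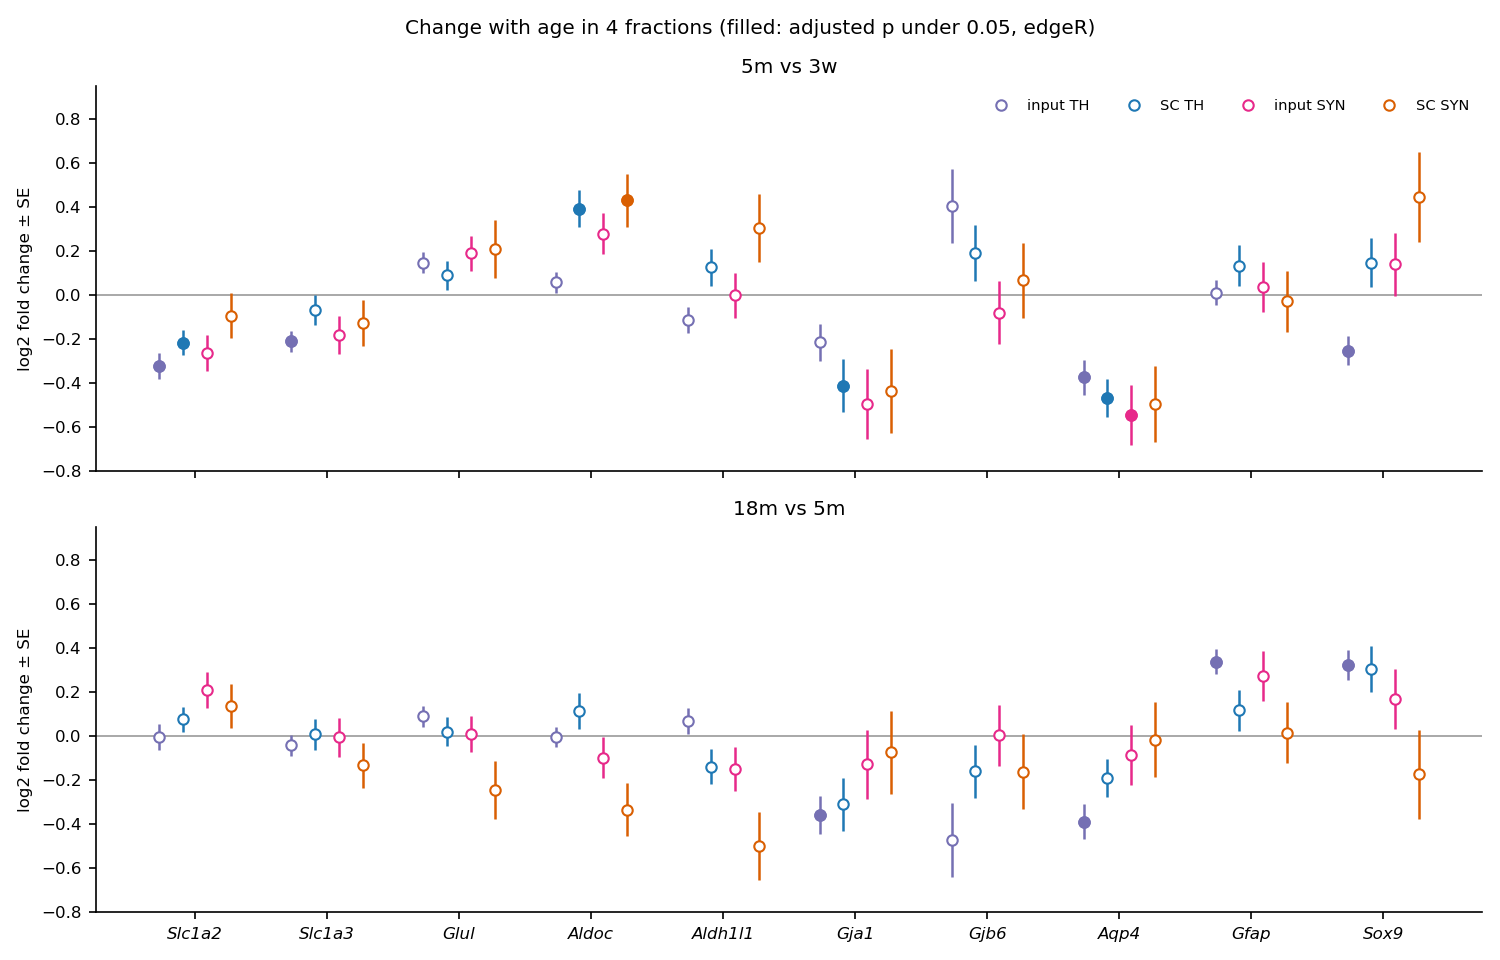
Log2 fold change with age of the 10 genes in the 4 fractions, for 5m against 3w and 18m against 5m; points are edgeR estimates, bars are 1 SE, and filled points have an adjusted p under 0.05. In input_TH, Gfap and Sox9 lie at 0.34 and 0.32 and Aqp4 and Gja1 at -0.39 and -0.36 for 18m against 5m.

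Whether a change with age differed between SYN and TH was tested on the difference itself. For SC libraries the test called 0.0301% of 16630 genes between 3w and 5m and 0 genes (0%) between 5m and 18m. An unadjusted p under 0.05 was found for 1324 and 2855 genes. None of the 10 genes passed in either, and 0 and 3 of them had an unadjusted p under 0.05. For input libraries the test called 0.0224% and 2.42% of 17860 genes and again none of the 10. At an unadjusted p under 0.05 there were 2 of the 10 in each, beside 1437 and 3168 genes. DESeq2 called 0 of the 10 in all 4 comparisons. Aldoc showed the lowest adjusted p for SC between 5m and 18m, with 0.11 in TH, -0.33 in SYN and a difference of -0.46 (SE 0.145, edgeR adjusted p = 0.155). A missed threshold does not show that the changes were alike: for Gja1 the SE of the difference in SC was 0.24 between 3w and 5m and 0.237 between 5m and 18m.

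Related genes were counted in TH with age. Between 3w and 5m, 4.76% of all genes rose and 7.05% fell in input_TH, and 9.48% rose and 8.46% fell in SC_TH. In input_TH between 5m and 18m, 8.18% rose and 7.35% fell. Of 38 other astrocyte markers, 4 rose and 10 fell in input_TH between 3w and 5m, 7 rose and 4 fell between 5m and 18m, and 13 rose and 3 fell in SC_TH between 3w and 5m. Etnppl, an enzyme of phospholipid metabolism, rose in input_TH and SC_TH by 1.37 and 0.93, and Dio2, which activates thyroid hormone, fell by 0.49 and 0.57. Among the 8 other connexin genes, 3 fell and none rose in input_TH between 3w and 5m, among them Gjb1 (-0.65) and Gjc3 (-0.61), which are connexins of oligodendrocytes. Between 5m and 18m 2 rose, among them Gjb1 (0.68).

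The list of reactive astrocyte genes had 3 of 16 tested genes higher and none lower in input_TH between 3w and 5m: the complement gene C4b (1.27), the protease inhibitor gene Serpina3n (0.64) and the histocompatibility gene H2-T23 (0.64). The summed level of its 20 genes was 290 CPM in the library of mouse 191, 123 to 133 CPM in the other 5m libraries and 94.9 to 107 CPM at 3w. Without that library C4b (1.03), Serpina3n (0.66) and H2-T23 (0.45) still passed and S1pr3 (-0.35) fell, and the median of the tested genes went from 0.58 to 0.12. Between 5m and 18m, C4b rose by 0.78 and the cytokine receptor gene Osmr fell by 0.80 (1.02 and -0.60 without mouse 191). Among 12 other transcription factors of astrocytes, 3 fell and none rose between 3w and 5m, and 2 rose and 2 fell between 5m and 18m. Sox2 fell by 0.32 and then rose by 0.36, and Lhx2 fell by 0.28 and then rose by 0.40. Among the dystrophin and endfoot genes, Dag1 fell by 0.32 and Kcnj10 by 0.23 in input_TH between 3w and 5m, with 4 lower and 1 higher of 11, and Hepacam rose by 0.23 and Dtna fell by 0.17 between 5m and 18m, with 1 higher and 1 lower of 11 (2 higher and 3 lower without mouse 191). In SC_TH, 0 of these 11 genes passed (edgeR) between 3w and 5m.

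**Figure D5:**
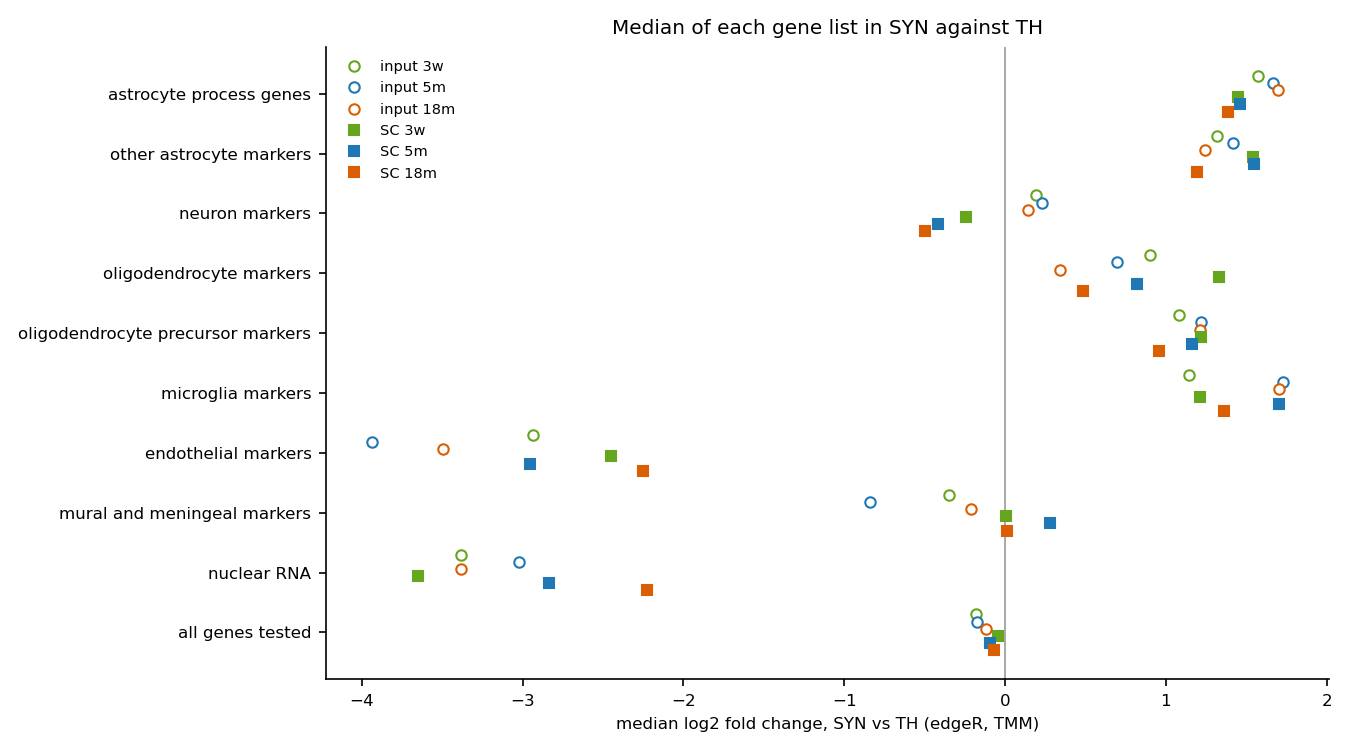
Median log2 fold change of the 10 genes, of other astrocyte markers and of marker lists of other cell types and nuclear RNA, for SYN against TH in input (circles) and SC (squares) at each age; medians are edgeR estimates with no error bar. In SYN against TH the medians of the 10 genes lie between 1.39 and 1.69, and those of all genes between -0.18 and -0.04.

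The genes whose level over the 12 group means was most like each of the 10 were sought among 10801 genes with a mean of at least 5 CPM, by Pearson r of log2 CPM. The points share libraries and mostly reflect the contrast of SYN with TH, so r is a description. Slc1a2 was closest to Lsamp, a neural adhesion molecule (r = 0.996), Slc1a3 to Fat1, a giant cadherin (0.998), and Glul to Ezr, a linker of membrane and actin that is known from fine astrocyte processes (0.999). Aldoc was closest to Acsbg1, an acyl-CoA synthetase of astrocytes (0.997), and Aldh1l1 to Carhsp1 (0.989). Gja1 and Aqp4 shared the nearest gene, Ednrb, an endothelin receptor (0.99 and 0.995). Gjb6 was closest to the desaturase gene Fads1 (0.99), Gfap to Cntnap3 (0.995) and Sox9 to Bckdha (0.97), the loosest match of the 10.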

How the data were processed

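RNA sequencing counts were analysed for 48 libraries of 12 mice. Per the submitters' processing notes, the authors converted the runs with bcl2fastq 2.20.0.422, aligned the reads to GRCm38 with TopHat2 2.1 and counted them in genes with featureCounts in its unstranded mode. Deposited were raw counts per gene, 1 column per library, with 0 columns left unmapped to a sample; the use of molecular identifiers is not given in the sources used here. Of the 48526 gene identifiers, 48144 were matched to GENCODE M21, and the others held 0.0596% of the counts.

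Groups came from the sample labels. Counts were scaled by TMM, filtered with filterByExpr and tested with the quasi-likelihood test of edgeR 4.0.16 in R 4.3.3. Contrasts were given to this test as weights on the groups. The p-values were adjusted by the Benjamini-Hochberg method over all genes tested, with a threshold of 0.05. Age was compared within each fraction (12 libraries), SYN with TH at each age within input or SC (24 libraries), and SC with input within each compartment (24 libraries). CPM values were computed over the TMM-scaled library sizes of all 48 libraries, with a prior count of 2 for ratios and correlations. DESeq2 1.42.0, library sizes without TMM, other filters, a replicate block for the mouse, a fit of all 48 libraries, a correction for GC content and exonic length (loess, span 0.5) and leaving out each mouse were the alternatives. The procedure was tested on simulated data. A library with few reads gives a wider counting error, and the synaptosome inputs were the shallowest.

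Libraries with the same number come from the same mouse, so the numbers pair the libraries across fractions. Deviations from the group means had median correlations between -0.0433 and 0.186 over the 6 pairs of fractions, with a range over mice from -0.619 to 0.621. No 2 libraries agreed within counting error, as the variance between libraries of a group was 1.98 to 32.2 times that error over 72 pairs.

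The named genes were the 10 genes, any gene of the pathway, family and astrocyte lists, and for each of the 10 the genes most like it over the group means. The 10 genes and the lists were chosen with earlier results of these data known. The examples named from each list were picked after their values were seen, beside the counts for the whole list. Some items of the lists are not reported here.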

Additional observations from a re-analysis of the deposited data

Results flagged for a closer look

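In 10 of 120 groups of 4 mice, 1 library lay far from the other 3, with a gap to its neighbour of a larger share of the range of the group than Dixon's 95% critical value. Chance gives 1 in 20, or 6 of 120. In input_TH at 5m the library of mouse 191 had 2855 CPM of Slc1a2 against 3392 to 3417 CPM in the others, a gap over range of 0.955, and 59.8 CPM of Gjb6 against 32.3 to 33.3 CPM, a gap over range of 0.963. The same mouse was high in input_SYN at 5m for Aqp4, with 172 against 140 to 141 CPM (0.962), and in SC_SYN at 5m for Sox9, with 104 against 72.2 to 77.2 CPM (0.844).

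Mouse 190 (3w) was low in input_SYN for Glul, with 3089 against 3512 to 3553 CPM (0.91), and for Aqp4, with 171 against 223 to 227 CPM (0.918), and it was high in SC_TH for Gjb6, with 50.2 against 44.9 to 45.4 CPM (0.916). Mouse 198 (18m) was high in SC_SYN for Aldh1l1, with 227 against 168 to 171 CPM (0.935), and for Aqp4, with 207 against 134 to 140 CPM (0.917). Mouse 192 (5m) was high in SC_TH for Glul, with 2420 against 2042 to 2092 CPM (0.866).

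The log2 ratio of SC over input differed between SYN and TH for 4 of the 10 genes by the test of the difference in edgeR, with SYN minus TH at -0.44 for Slc1a2, 0.36 for Aldh1l1, -1.11 for Gja1 and -0.47 for Aqp4.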

How the results depend on the processing

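Of 1896 alternative values of the 95 called values of the 10 genes, 1821 stayed the same, 38 lost the call and 2 reversed. The other 35 moved by more than 1 SD, all of them with the trend on GC content and length removed. That alternative has no test, so its 95 values could not keep or lose a call. Among them 60 lay within 1 SD and count as the same. Elsewhere, the same means that direction and call were kept. Both reversed values were those of Sox9 in SYN against TH with library size in place of TMM, at -0.053 in SC at 18m and -0.22 in input at 3w. That scaling brought the median of the 10 genes in SYN against TH to 0.90, 0.87 and 0.86 in SC and to 1.00, 1.02 and 1.12 in input at 3w, 5m and 18m, and at least 10 counts in every library brought the input medians to 1.29, 1.36 and 1.40. With all 48 libraries in one fit, the number of the 10 genes called between 3w and 5m was 1 in input_TH, 2 in input_SYN and 5 in SC_SYN, and between 5m and 18m it was 0 in input_TH and 3 in SC_SYN. In input_SYN between 3w and 5m it was 2 with DESeq2, 2 with only the 8 libraries compared and 2 with no filter, and 0 to 1 with each mouse left out. In SC_SYN between 3w and 5m it was 0 with library size and 0 to 2 with each mouse left out. For the change of SC over input in TH between 3w and 5m it was 2 with DESeq2, 1 with at least 10 counts, 2 with no filter, 1 without mitochondrially encoded genes and 0 to 2 with each mouse left out. The cause of these changes in the number of the 10 genes called was not tested. Counts over all genes also moved between the alternatives. They are given below as ranges that are not matched to a setting, so the counts of the 10 cannot be set against them. With the replicate block, 1 of 170 values of the 10 genes changed its call (Slc1a3 in SC over input, SYN minus TH, -0.13).

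Counts of all genes called ranged over the alternatives from 761 to 2383 in input_TH between 3w and 5m (main 2136) and from 183 to 3389 between 5m and 18m (2808), from 1653 to 4124 (2948) and 84 to 774 (356) in SC_TH, from 224 to 895 (418) and 7 to 102 (18) in input_SYN, and from 558 to 3464 (1146) and 0 to 1457 (2) in SC_SYN. For the change of SC over input in TH they ranged from 0 to 1350 (429) and from 16 to 1282 (328).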

Other observations

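In SC over input, SYN minus TH, 18.7% of all genes were higher and 24.8% lower, and other lists gave these counts. All 12 neuron markers were lower (edgeR), with a median of -0.57, whereas 7 of 10 endothelial markers were higher and none lower, with a median of 0.95. The endothelial values rest on few reads in synaptosomes. In input_SYN these 10 markers summed to 17.6 to 33.5 CPM, and 7 to 9 of them had reads in all 4 libraries of an age. Among the reactive astrocyte genes 6 of 16 tested were higher and none lower, led in size of those named here by Osmr at 1.26, and the intermediate filament gene Vim was 1.16 higher. Of the genes of aldolases and aldehyde dehydrogenases other than Aldoc and Aldh1l1, 1 of 6 was higher and 1 lower.

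In SC_TH, C4b rose by 1.39 and Serpina3n by 1.47 between 3w and 5m, and C4b rose by 0.93 between 5m and 18m. Gfap, often measured beside these genes in reactive astrocytes, was at 0.13 and 0.12 there and did not pass (edgeR).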
